A study of Mus musculus with 29 samples.

Results

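Intestinal organoids grown from control mice were set against freshly isolated crypt epithelium of control mice. The comparison used 7 of the 29 libraries of the series. They were the 3 organoid libraries whose titles call them WT, here organoids A, B and C, and the 4 crypt libraries of genotype H2B flox/flox, here crypts 1 to 4. Every difference below is organoid minus crypt. The wider study measured RNA in crypts, organoids, tumours and neighbouring tissue of mice that lacked Rnaseh2b, a subunit of ribonuclease H2, in the intestinal epithelium, alone or with Trp53. H2BdIEC names the mice and organoids without Rnaseh2b in that epithelium; 3 organoid and 4 crypt libraries of that genotype, the crypts again from mice aged 52 weeks, serve as a second contrast. Intestinal tissue of 4 H2B/p53flox/flox mice is used only for the level of marker genes, and 1 of those 4 libraries held only 401365 gene counts.

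The organoid donors were C57BL/6 mice. Their genotype is labelled H2B/p53flox/flox, while the design text of the series describes control organoids as H2Bfl/fl, so whether the Trp53 allele was floxed in them is uncertain. The age of the donors, the culture medium and the passage are not in the labels. Letters A to C are not tied to separate mice, so each p value speaks only to variation among the libraries at hand, and that variation may be technical. The crypts were taken from the small intestine of C57BL/6 mice aged 52 weeks, with 1 library per mouse number in the titles. Floxed alleles with no recombinase named were common to both groups. Both were extracted and prepared with the same kits per the labels, from 500 ng of total RNA, but as separate library series. The type of sample and the library series cannot be told apart here. For that reason large differences, meaning at least 4-fold with an adjusted p under 0.05, are counted apart from the rest.

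In the intestine, stem cells at the crypt base divide and their progeny move up towards the villus. On the way they become absorptive enterocytes or secretory cells: goblet cells make mucus, Paneth cells make antimicrobial peptides, enteroendocrine cells make hormones and tuft cells sense luminal signals. Wnt and EGF signals hold cells in the crypt state, and BMP signals, mostly from the stroma, rise towards the villus. Organoids are epithelium alone, grown in a basement membrane gel in a defined medium. They have no stroma, no lymphocytes and no microbes, whereas isolated crypts can carry over lymphocytes that lie between epithelial cells.

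Gene counts summed to 16803119 to 21386586 in the organoid libraries and to 23118463 to 25913155 in the crypt libraries. Levels are in CPM, which puts libraries of different depth on the same footing, with library sizes adjusted by the trimmed mean of M values (TMM), a scaling that assumes most genes do not change. Of 47357 Ensembl genes counted in both sets, 16901 had enough counts to be tested. Organoids were higher for 7115 of them and lower for 6546, and large differences numbered 2690 higher and 2867 lower. As background for every list below, 42.1% of tested genes were called higher and 38.7% lower, 15.9% by at least 4-fold higher and 17.0% by at least 4-fold lower. Most tested genes were thus called higher or lower, so the assumption of the scaling was not met. Scaling factors also split by group, at 1.19 to 1.24 in organoids and 0.79 to 0.92 in crypts. The sign of a small log2 fold change therefore rests on the scaling and is less certain. The median log2 fold change over tested genes was 0.06. Values after ± are the standard error of a log2 fold change. Where groups are said to be separate or not to overlap, this describes the named gene only. The share of all tested genes with such separation is not given here.

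The libraries also differed in kind of transcript. Processed pseudogenes, intronless copies of genes, took 4.2% to 4.36% of counts in organoids and 0.111% to 0.132% in crypts, and 1806 of the 1972 tested were called higher (91.6%). Small RNAs took 0.0366% to 0.0381% of counts in organoids and 1.14% to 5.69% in crypts. Histone genes whose messages lack a poly(A) tail took 0.00684% to 0.00776% in organoids and 0.314% to 0.424% in crypts, with 56 of 57 lower (98.2%). Crypt 4 stood apart from crypts 1 to 3: in pairwise tests of counts over genes, chi-square divided by its degrees of freedom was 161 to 210 for pairs with crypt 4 and 21.3 to 64.8 for pairs among crypts 1 to 3, and 10.4% of its counts were mitochondrial, against 4.33% to 5.09% in the other crypts. Xist, expressed from the inactive X chromosome, was at 981, 878 and 527 CPM in organoids and 1.28, 1.68, 1.71 and 1200.0 CPM in crypts, and Kdm5d, a Y-linked gene, was at 0.0485, 0.0782 and 0 CPM in organoids and 66.8, 59.0, 64.5 and 0.105 CPM in crypts. Crypts 1 to 3 thus had the pattern of males, and crypt 4 and the organoids that of females; the part of sex in the differences below was not tested. Without crypt 4, 7198 genes were called higher and 6470 lower, 2706 and 2738 of them by at least 4-fold. That fit held no crypt with the female pattern, so it cannot tell sex from type of sample.

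Because pseudogene copies share reads with their parent genes, results were read again over 11386 genes called uniquely countable, a choice made after seeing the data. These are multi-exon protein-coding genes with at most 20% of their 50-base words or exonic bases shared with another gene. Among them 667 were higher and 1320 lower by at least 4-fold (5.86% and 11.6%). The share of higher genes among large differences was 48.4% over all genes and 33.6% over uniquely countable genes. Of the genes named below, Acaca, Ankrd37, Ccnb1, Ccnd1, Ctsl, Fgf15, Gapdh, Gsdmc2, Gstm3, Hbb-bs, Hist1h3f, Idi1, Ifi30, Igha, Itgam, Krt8, Mt2, Noxo1, Pgam1, Pgk1, Pkm, Psme2, Rps16, Tmem72, the alpha-defensins and the single-exon copies lie outside this set, so their values are less certain.

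**Figure D1:**
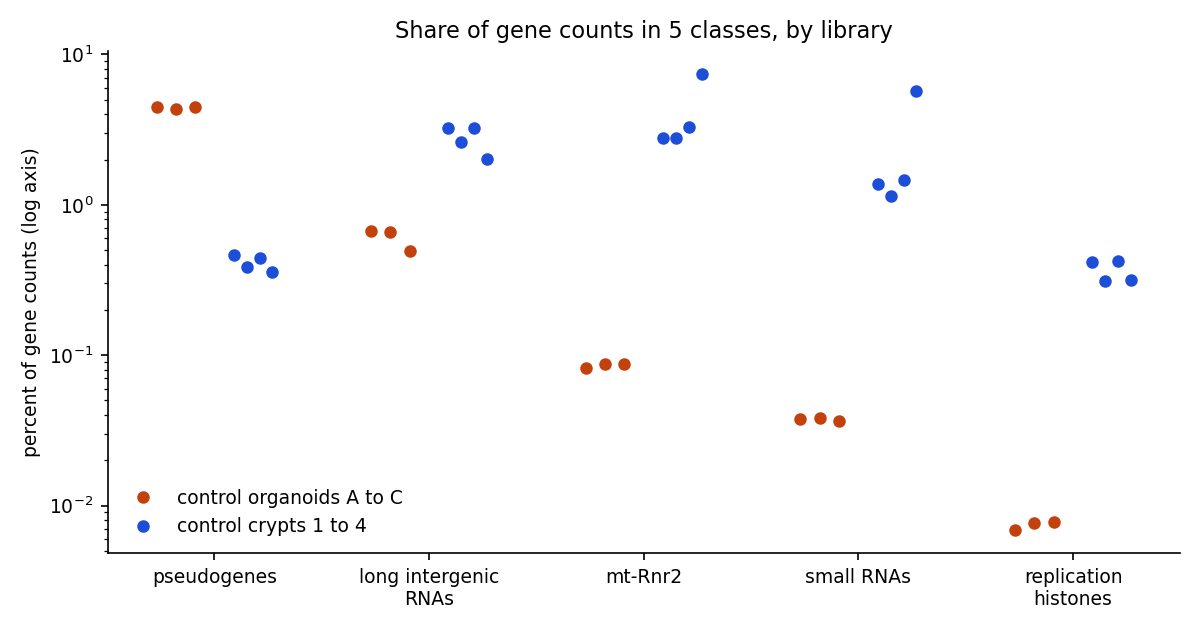
Share of gene counts, in percent on a log axis, taken by 5 classes of transcript, with 1 point per library. Pseudogenes are higher in organoids A to C (4.33% to 4.49%) than in crypts 1 to 4 (0.355% to 0.461%), and the 4 other classes are lower.

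Genes of crypt-base stem cells were higher in organoids than in crypts. Proliferation genes were modestly higher, and general epithelial genes split in both directions. Of 20 tested genes of the intestinal stem cell list, 16 rose, 5 by at least 4-fold, and 1 fell, with a median log2 fold change of 0.91. Here and in every list below, fewer cells of a type and less RNA per cell cannot be told apart. Lgr5, the R-spondin receptor that marks crypt-base stem cells (chr10:115450311-115587780, GRCm38), stood at 330.3, 302 and 256.31 CPM in organoids and 24.2, 16.4, 20.5 and 26.9 CPM in crypts. The organoids all lay far above the crypts (log2 fold change 3.75 ± 0.17, adjusted p = 2.9e-08). Smoc2, a secreted matrix protein of the stem cell zone, was at 416, 423 and 424 CPM in organoids and 98.5, 95.6, 101 and 103 CPM in crypts. Both groups were tight and did not overlap (log2 fold change 2.08 ± 0.08, adjusted p = 4.9e-09). Igfbp4, an IGF-binding protein of crypt-base cells, also rose (log2 fold change 2.77 ± 0.14), as did Prom1 (0.69 ± 0.12), a membrane glycoprotein, and Slc12a2 (0.73 ± 0.11), a sodium, potassium and chloride cotransporter. Olfm4, a secreted glycoprotein widely used as a stem cell marker, was the exception, at 398, 358 and 293 CPM in organoids and 788, 682, 615 and 692 CPM in crypts. All organoids lay below all crypts (log2 fold change -0.99 ± 0.13, adjusted p = 5.2e-05).

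Wnt target and feedback genes were less uniform. Of 19 tested, 10 rose, 3 by at least 4-fold, and 4 fell (median 0.39). The share that rose by at least 4-fold, 15.8%, was near the 15.9% of all tested genes. Axin2, a negative regulator of the pathway and one of its most general targets, was at 113, 111 and 111 CPM in organoids and 126, 107, 155 and 120.5 CPM in crypts, and the groups overlapped (log2 fold change -0.18 ± 0.12, adjusted p = 0.168). Tcf7, a transcription factor of the pathway, rose (log2 fold change 2.36 ± 0.11), and so did Myc (1.54 ± 0.15) and Ephb2 (0.53 ± 0.11), a receptor that positions cells along the crypt. Nkd1, a feedback inhibitor, fell (-1.09 ± 0.26), as did the transcription factors Sp5 (-0.78 ± 0.25) and Prox1 (-1.01 ± 0.26). Dkk3, a secreted member of the Dickkopf family, also fell, from few counts: it was at 0.0485, 0 and 0 CPM in organoids and 0.794, 0.272, 0.711 and 0.732 CPM in crypts, a ratio of crypts to organoids of 41.6 with a 95% counting interval of 7.47 to 1644. Ccnd1, the G1 cyclin, did not pass (-0.26 ± 0.17).

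Cell cycle genes were higher by less than 4-fold. In the G2/M list 21 of 26 genes rose and 1 fell (median 0.89), and in the DNA replication list 20 of 26 rose and 2 fell (median 0.47). Cdk1, the kinase that drives entry into mitosis, was at 135, 127 and 129 CPM in organoids and 46.3, 44.2, 44.5 and 46.1 CPM in crypts. Every organoid lay above every crypt (log2 fold change 1.53 ± 0.07, adjusted p = 1.7e-08). Rrm2, a subunit of ribonucleotide reductase, was at 115, 115 and 122 CPM in organoids and 41.4, 35.0, 37.5 and 38.7 CPM in crypts, again without overlap (log2 fold change 1.62 ± 0.08, adjusted p = 3.2e-08). Pttg1 (securin) had a log2 fold change of 1.62 ± 0.11, Mcm3 (replicative helicase) of 1.13 ± 0.09, Rrm1 of 1.01 ± 0.08, Ccna2 (cyclin A2) of 0.96 ± 0.10, Pcna of 0.54 ± 0.11 and Top2a of 0.37 ± 0.10. Mki67, the general proliferation marker, was at 520.2, 468 and 472 CPM in organoids and 585, 494, 594 and 419 CPM in crypts and did not pass (log2 fold change -0.10 ± 0.13, adjusted p = 0.476). Ccnb1 fell (-0.67 ± 0.10), although 23.4% of its 50-base words occur in another gene. Tyms and Slbp, the histone stem-loop binding protein, fell slightly (-0.23 ± 0.08 and -0.33 ± 0.10).

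Both groups expressed the defining epithelial genes. Epcam, an adhesion molecule of all epithelial cells, was at 1025, 1016 and 1109 CPM in organoids and 2028, 2025, 2046 and 2087 CPM in crypts (log2 fold change -0.96 ± 0.10, adjusted p = 1.1e-05). The caudal homeobox genes Cdx1 and Cdx2, which specify intestine, rose slightly (0.41 ± 0.12 and 0.48 ± 0.10). Of 15 general epithelial genes, 4 rose and 7 fell, and the fall was large in Krt20, Vil1 and Krt8. Krt20, a keratin of villus cells, was at 34.0, 64.3 and 43.5 CPM in organoids and 1431, 1866, 1434 and 1500.4 CPM in crypts, with no overlap (log2 fold change -5.04 ± 0.25, adjusted p = 5.2e-08). Vil1, the actin-bundling protein villin of microvilli, fell too (-2.65 ± 0.14), as did Ezr (-1.64 ± 0.12), which ties the membrane to actin, and Lgals4 (-1.26 ± 0.12), a galectin. Their summed level was 10628 to 11316 CPM in organoids and 22448 to 23223 CPM in crypts.

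**Figure D2:**
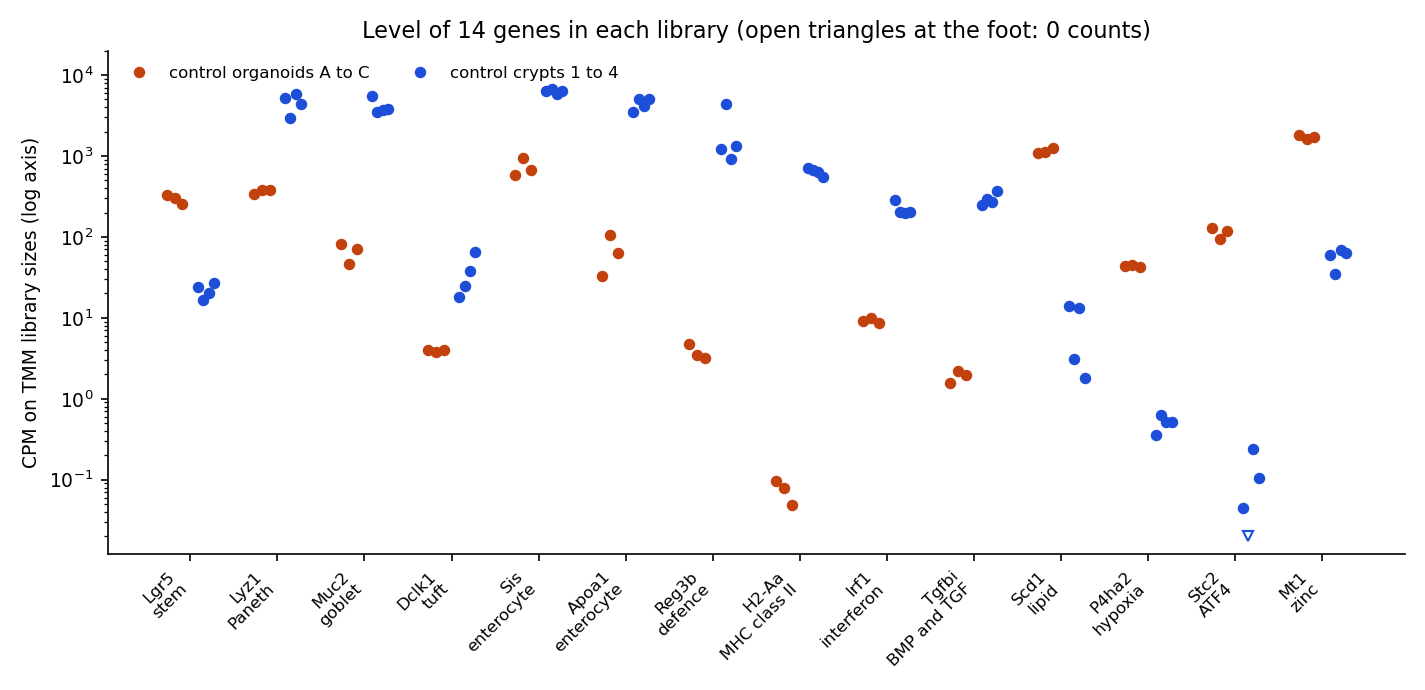
Levels of 14 genes in CPM on TMM-scaled library sizes, on a log axis, with 1 point per library for organoids and crypts; open triangles mark 0 counts. The groups are separate for each gene shown, with Lgr5, Scd1, P4ha2, Stc2 and Mt1 higher in organoids and the others lower.

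Secretory lineages went different ways. Goblet, Paneth and tuft cell genes were lower in organoids, and most enteroendocrine genes were higher. Of 19 goblet cell genes, 16 fell, 9 by at least 4-fold, and 0 rose (median -1.69). Muc2, the gel-forming mucin of the intestine, was at 80.6, 46.6 and 70.9 CPM in organoids and 5576, 3517, 3672 and 3855 CPM in crypts. The organoids all lay far below the crypts (log2 fold change -5.98 ± 0.28, adjusted p = 3.2e-08). Clca1, a secreted protease that acts on mucus, was at 2.66, 4.34 and 4.44 CPM in organoids and 1174, 926, 711 and 2306 CPM in crypts (log2 fold change -8.38 ± 0.59, adjusted p = 5.5e-06). Zg16, a mucus lectin that binds bacterial cell walls, was at 6.54, 5.24 and 5.37 CPM in organoids and 1483, 1107, 758 and 1337 CPM in crypts (log2 fold change -7.68 ± 0.29, adjusted p = 1.3e-08). Both were low in all organoids and far from any crypt. Fcgbp, a mucin-like component of mucus, fell (-3.08 ± 0.28), as did Sytl2 (-3.45 ± 0.17) and Capn9 (-3.93 ± 0.22). Spdef, a transcription factor of goblet and Paneth cells and not chosen by the rule but after its value was seen, fell less (-1.69 ± 0.22), and Tff3, a trefoil peptide likewise chosen after its value was seen, did not pass (-0.47 ± 0.22, adjusted p = 0.077).

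Of 20 Paneth cell genes, 17 fell, 15 by at least 4-fold (median -3.06). Lyz1, the lysozyme of Paneth cells, was at 340.1, 377 and 383 CPM in organoids and 5147, 2925, 5895 and 4389 CPM in crypts. All organoids lay below all crypts (log2 fold change -3.65 ± 0.24, adjusted p = 3.3e-07). Mmp7, the protease that activates alpha-defensins, was at 26.4, 24.7 and 21.9 CPM in organoids and 123, 101, 162 and 168 CPM in crypts (log2 fold change -2.51 ± 0.19, adjusted p = 1.4e-06). Itln1, a lectin, fell less (-1.34 ± 0.27), and Habp2 fell as well (-2.46 ± 0.22). The alpha-defensin genes are near-identical copies, so reads cannot be assigned to single members and their values are uncertain. Defa24, with 24.1% of its words in another gene, had a log2 fold change of -2.75 ± 0.49, and Defa30 one of -5.18 ± 0.63. Over the 9 uniquely countable members the median was -2.46. Cd24a, a surface marker of Paneth and other crypt cells, and Nupr1, a stress-induced chromatin protein, were higher (0.70 ± 0.26 and 3.25 ± 0.31).

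Tuft cell genes fell in 17 of 20 cases and rose in 0 (median -3.36). Dclk1, a kinase that marks tuft cells, was at 4.02, 3.83 and 4.0 CPM in organoids and 18.1, 24.9, 38.2 and 65.3 CPM in crypts. Crypts spanned a wide range and all organoids lay below it (log2 fold change -3.21 ± 0.50, adjusted p = 6.7e-04). Trpm5, the channel of their taste-type signalling, fell as well (-3.20 ± 0.46), and so did Fyb (-4.42 ± 0.32) and Tas1r3 (-1.86 ± 0.25). Pou2f3, the transcription factor that specifies tuft cells and named after its value was seen, was at 4.55, 3.13 and 3.32 CPM in organoids and 2.43, 2.45, 3.98 and 6.90 CPM in crypts, and the groups overlapped (log2 fold change -0.10 ± 0.37, adjusted p = 0.813). Crypt 4 had the highest level of Dclk1, and also of Trpm5, at 4.02, 3.87 and 4.0 CPM in organoids and 19.5, 27.6, 33.2 and 65.8 CPM in crypts. Ptprc of this list is also expressed by leukocytes, and their part in the falls of this list, that of Fyb included, was not tested.

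Enteroendocrine genes rose in 16 of 25 cases, 5 by at least 4-fold, and fell in 3 (median 0.91). Cck, the hormone cholecystokinin, was at 93.3, 116 and 114 CPM in organoids and 11.3, 15, 10.9 and 16.8 CPM in crypts. Every organoid lay above every crypt (log2 fold change 3.0 ± 0.16, adjusted p = 9.2e-08). Chgb, a granin of secretory granules, was at 475, 481 and 453 CPM in organoids and 144, 168, 131 and 149.96 CPM in crypts (log2 fold change 1.66 ± 0.10, adjusted p = 1.3e-07), while Chga, its close relative, was at 73.3, 64.2 and 67.5 CPM in organoids and 73.3, 74.1, 64.1 and 71.9 CPM in crypts and overlapped (log2 fold change -0.05 ± 0.08, adjusted p = 0.577). Gip, the incretin of K cells, did not pass (-0.08 ± 0.21), nor did Reg4 (-0.37 ± 0.73), for which crypt 4 stood apart, at 114, 109.7 and 107 CPM in organoids and 62.8, 56.2, 102 and 349 CPM in crypts; without crypt 4 its log2 fold change was 0.58 and passed. Secretin fell: Sct was at 1.89, 1.80 and 1.46 CPM in organoids and 19, 17.6, 15.6 and 22.8 CPM in crypts (log2 fold change -3.44 ± 0.18, adjusted p = 5.3e-08). Nts (neurotensin) and Pyy (peptide YY), hormones released more towards the distal gut, fell too (-2.20 ± 0.24 and -1.52 ± 0.39).

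Absorptive genes were lower in organoids almost throughout. In the list of brush border proteins and digestive enzymes 25 of 27 genes fell, 22 of them by at least 4-fold, and 1 rose (median -3.43). Their summed level was 4711 to 6372 CPM in organoids, 45481 to 63214 CPM in crypts and 55074 to 67242 CPM in control tissue. Brush border sums thus overlapped between crypts and tissue, while stem cell genes summed to 2649 to 2937 CPM in crypts and 711 to 953 CPM in tissue. Whether the crypt libraries held villus cells was not tested. Crypts and tissue also differed in genes of gut position. Those of ileal bile acid and cobalamin uptake summed to 2286 to 3992 CPM in crypts and 15975 to 23186 CPM in tissue. Proximal genes summed to 7104 to 11271 CPM in crypts and 905 to 1164 CPM in tissue. The part of gut position in the brush border sums was not tested. Sis, sucrase-isomaltase, was at 585, 934 and 678 CPM in organoids and 6362, 6779, 5910.4 and 6314 CPM in crypts, and the groups lay far apart (log2 fold change -3.11 ± 0.19, adjusted p = 1.6e-07). Enpep, an aminopeptidase of microvilli, was at 20.5, 33.3 and 26.8 CPM in organoids and 1709, 1720.3, 1576 and 1597 CPM in crypts (log2 fold change -5.94 ± 0.20, adjusted p = 2.2e-09). Mgam (maltase-glucoamylase) fell with a log2 fold change of -4.17 ± 0.21, Anpep (aminopeptidase N) with -2.61 ± 0.21, Myo1a (brush border myosin) with -3.97 ± 0.14 and Mttp, which loads lipoproteins, with -1.99 ± 0.22. Akp3, an intestinal alkaline phosphatase, was the member that rose, at 58.1, 65.7 and 105 CPM in organoids and 3.57, 5.67, 6.49 and 17.1 CPM in crypts (log2 fold change 3.23 ± 0.55, adjusted p = 0.0017).

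Sugar, amino acid and peptide transporters fell in 19 of 21 cases, 15 by at least 4-fold (median -3.09). Slc15a1, the peptide transporter of enterocytes, was at 2.28, 5.86 and 3.22 CPM in organoids and 869, 1103, 1021 and 1246 CPM in crypts. The organoids all lay far below the crypts (log2 fold change -8.11 ± 0.36, adjusted p = 6.5e-08). Slc5a1, the sodium-dependent glucose transporter, was at 332, 496 and 418 CPM in organoids and 2415, 3892, 2588 and 3823 CPM in crypts (log2 fold change -2.94 ± 0.23, adjusted p = 1.2e-06). Slc5a4a, a related gene, was at 0.145, 0.0782 and 0.0488 CPM in organoids and 66.2, 81.1, 68.3 and 101 CPM in crypts (log2 fold change -9.69 ± 0.30, adjusted p = 1.9e-09). Slc6a19, a neutral amino acid transporter, Slc2a2, the basolateral glucose transporter, and Slc7a9, a cystine transporter, fell too (-5.78 ± 0.30, -3.09 ± 0.42 and -3.35 ± 0.15). The members that rose were Slc1a5 (1.61 ± 0.12), a glutamine transporter of growing cells, and Slc43a1 (0.74 ± 0.28).

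Genes of fat absorption fell in 23 of 25 cases, 15 by at least 4-fold (median -2.17). Apoa1, an apolipoprotein of chylomicrons and high-density lipoprotein, was at 33.1, 106 and 62.6 CPM in organoids and 3481, 5055, 4196 and 5033 CPM in crypts. Organoid A was lowest and all organoids lay far below the crypts (log2 fold change -6.05 ± 0.44, adjusted p = 2.4e-06). Apob, the structural protein of chylomicrons, was at 332, 369.6 and 345 CPM in organoids and 9151, 14004, 8161 and 7909 CPM in crypts (log2 fold change -4.81 ± 0.25, adjusted p = 5.6e-08). Fabp2, the intestinal fatty acid carrier, fell (-4.64 ± 0.25), and so did Slc27a4 (-4.09 ± 0.19) and Dgat1 (-2.76 ± 0.13), which take up fatty acids and build triglycerides. Scarb1, the scavenger receptor for high-density lipoprotein, went the other way, at 140.2, 192 and 179 CPM in organoids and 2.21, 4.35, 2.84 and 4.81 CPM in crypts (log2 fold change 5.59 ± 0.25, adjusted p = 9.3e-08).

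Genes that mark position along the small intestine did not follow a single order, and crypts differed among themselves. In the list of bile acid and cobalamin uptake, functions of the ileum, 11 of 13 genes fell and 2 rose (median -3.05). Fabp6, the ileal bile acid carrier, was at 0.0485, 0.117 and 0.0977 CPM in organoids and 941, 1.09, 519 and 199 CPM in crypts. Crypt 2 stood well below the other crypts, and still above the organoids (log2 fold change -12.08 ± 3.09, adjusted p = 0.014). Cubn, the cobalamin receptor, was at 0.485, 1.80 and 0.977 CPM in organoids and 583, 308, 440.2 and 443 CPM in crypts (log2 fold change -8.62 ± 0.44, adjusted p = 4.3e-07), with no such outlying crypt, and Slc51a, a basolateral bile acid exporter, fell as well (-6.85 ± 0.25). Nr0b2, a nuclear receptor induced by bile acids, and Ctsl, a cathepsin, rose (2.29 ± 0.25 and 2.40 ± 0.25).

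In the proximal list 6 of 14 genes rose and 6 fell (median 0.36). Among genes of iron uptake, Cybrd1, the ferric reductase of the duodenal brush border, was at 547, 639 and 582 CPM in organoids and 4.55, 2.49, 4.03 and 3.14 CPM in crypts (log2 fold change 7.37 ± 0.19, adjusted p = 5.9e-10). Slc11a2, the iron importer, was at 704, 1102 and 893 CPM in organoids and 56.6, 65.1, 49.1 and 48.4 CPM in crypts (log2 fold change 4.04 ± 0.17, adjusted p = 1.4e-08). In both, every organoid lay above every crypt. Lct, the enzyme that splits milk sugar, was at 7.95, 24.9 and 15.9 CPM in organoids and 2077, 3672, 1957 and 2173 CPM in crypts (log2 fold change -7.24 ± 0.52, adjusted p = 3.9e-06). Heph, an iron oxidase of the basolateral membrane, fell (-2.45 ± 0.17), Fabp1 fell (-1.41 ± 0.40), and Cps1, a urea cycle enzyme, was slightly higher (0.26 ± 0.11). Pdx1, a duodenal transcription factor chosen after its value was seen, was at 26.2, 22 and 30.8 CPM in organoids and 0.441, 2.49, 0.237 and 2.41 CPM in crypts (log2 fold change 4.25 ± 0.61, adjusted p = 4.5e-04).

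Targets of niche signals differed in direction by pathway. BMP and TGF-beta target genes were lower in organoids, and EGF receptor ligands and feedback genes were mostly higher. Of 19 BMP and TGF-beta genes, 13 fell, 10 by at least 4-fold, and 5 rose (median -2.09). Id3, a direct BMP target that blocks differentiation factors, was at 3.54, 2.85 and 3.66 CPM in organoids and 74.4, 64.5, 72.7 and 78.2 CPM in crypts. The groups were tight and far apart (log2 fold change -4.44 ± 0.12, adjusted p = 7.7e-10). Tgfbi, a matrix protein induced by TGF-beta, was at 1.55, 2.23 and 1.95 CPM in organoids and 248, 291, 271 and 371 CPM in crypts (log2 fold change -7.26 ± 0.21, adjusted p = 9.3e-10). Smad7, the feedback inhibitor, was at 3.39, 4.18 and 4.2 CPM in organoids and 63.9, 82.2, 65.5 and 53.7 CPM in crypts (log2 fold change -4.07 ± 0.17, adjusted p = 1.1e-08). Id1 (-2.48 ± 0.11) and Skil (-2.91 ± 0.15) fell as well. Members that rose included Bmp7 (2.41 ± 0.18), Tgfb1 (1.71 ± 0.34), Msx1 (1.0 ± 0.42) and Klf10 (0.74 ± 0.09).

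Of 24 EGF receptor ligands, receptors and ERK feedback genes, 16 rose, 6 by at least 4-fold, and 7 fell (median 0.84). Among ligands, Areg (amphiregulin) was at 133, 165 and 137 CPM in organoids and 5.25, 11.2, 4.36 and 3.56 CPM in crypts and did not overlap (log2 fold change 4.56 ± 0.37, adjusted p = 1.8e-05). Btc (betacellulin) was at 62.8, 56.6 and 53.8 CPM in organoids and 5.03, 6.35, 4.74 and 5.96 CPM in crypts (log2 fold change 3.39 ± 0.12, adjusted p = 3.6e-09). Among receptors, Erbb3 and Erbb2 fell (-2.63 ± 0.13 and -1.43 ± 0.13). Among feedback genes, Dusp4, a phosphatase of ERK, was at 73.7, 76.2 and 72.6 CPM in organoids and 6.80, 9.48, 7.82 and 9.26 CPM in crypts, all organoids above all crypts (log2 fold change 3.15 ± 0.12, adjusted p = 4.9e-09). Lrig1, an inhibitor of EGF receptors and a stem cell marker, rose (1.01 ± 0.09).

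Genes of the fetal-like epithelial state and of the transcriptional coactivator YAP rose in 18 of 28 cases, 11 by at least 4-fold, and fell in 7 (median 1.24). Ly6e, of the family of the fetal marker Ly6a, was at 146, 172 and 191 CPM in organoids and 73.4, 60.8, 91.5 and 77.7 CPM in crypts (log2 fold change 1.16 ± 0.14, adjusted p = 2.4e-05). Anxa3, an annexin, was at 22.7, 22.2 and 19.2 CPM in organoids and 3.66, 3.45, 2.51 and 3.56 CPM in crypts (log2 fold change 2.70 ± 0.15, adjusted p = 7.7e-08), and Ccn1, a matricellular YAP target, was at 10.4, 9.34 and 8.64 CPM in organoids and 2.07, 1.63, 1.23 and 1.83 CPM in crypts (log2 fold change 2.48 ± 0.19, adjusted p = 9.7e-07). None of these overlapped. Mal2 and Krt7 rose by less (0.91 ± 0.09 and 0.79 ± 0.11). Of 14 epithelial keratins, 10 rose and 3 fell (median 0.85). Krt14, a keratin of stratified epithelium, was at 7.41, 9.5 and 9.13 CPM in organoids and 0.0441, 0, 0.190 and 0.0523 CPM in crypts, low in absolute terms but separate (log2 fold change 6.83 ± 0.42, adjusted p = 1.7e-07). Krt18 rose (0.81 ± 0.16) while its partner Krt8 fell (-2.32 ± 0.12), and Krt8 shares 29.3% of its words with other genes. Krt19 fell slightly (-0.39 ± 0.13).

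**Figure D3:**
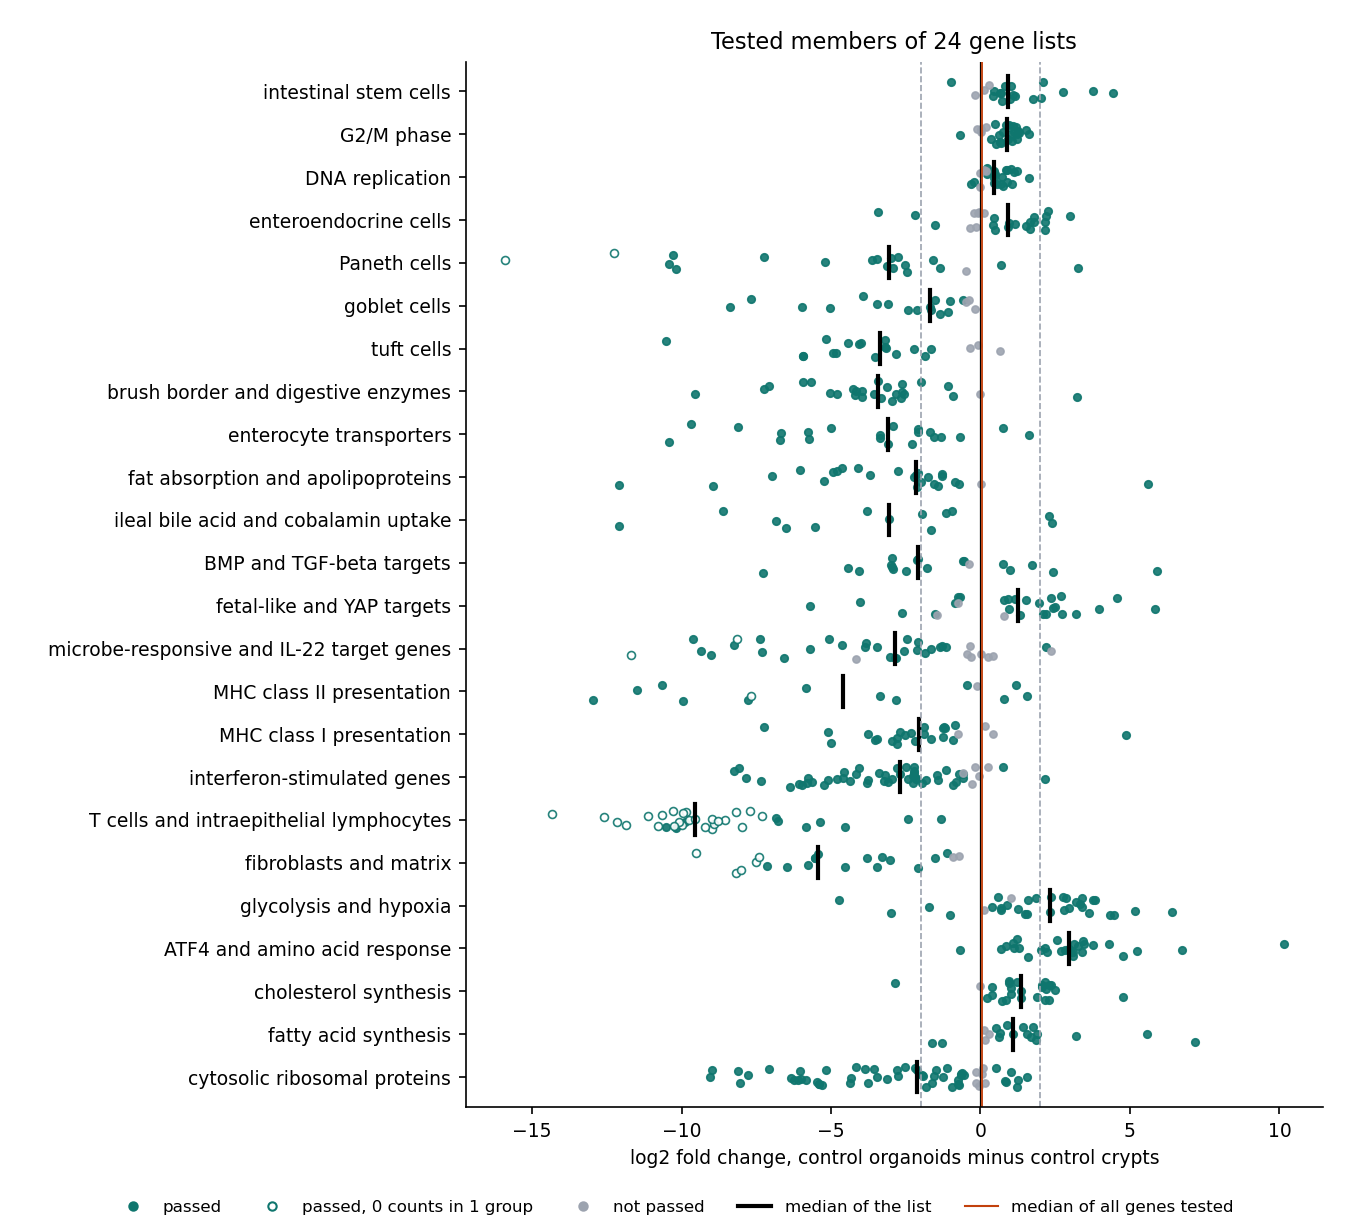
Log2 fold change, organoids minus crypts, of each tested member of 24 gene lists; filled points passed, open points passed with 0 counts in 1 group, grey points did not pass, black bars are list medians, the orange line is the median of all genes tested and dashed lines mark 4-fold. The ATF4 list lies mostly to the right (median 2.97) and the T cell list wholly to the left (median -9.56).

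Genes that the epithelium switches on in response to microbes, interleukin-22 and interferon were low in organoids. Of 36 microbe-responsive and interleukin-22 target genes, 27 fell, 22 by at least 4-fold, and 1 rose (median -2.84). Reg3b, a secreted antimicrobial lectin, was at 4.70, 3.48 and 3.22 CPM in organoids and 1224, 4421, 923 and 1328 CPM in crypts. Crypt 2 had the highest level, and all organoids lay far below all crypts (log2 fold change -9.02 ± 0.88, adjusted p = 8.0e-05). Il22ra1, the epithelial receptor chain for interleukin-22, was at 16.8, 13.9 and 16.0 CPM in organoids and 81.5, 103, 81.0 and 73.2 CPM in crypts (log2 fold change -2.44 ± 0.13, adjusted p = 6.9e-08). Dmbt1, a secreted scavenger protein that binds bacteria, was at 433, 300.1 and 668 CPM in organoids and 2883, 5367, 2576 and 2669.9 CPM in crypts (log2 fold change -2.85 ± 0.37, adjusted p = 1.0e-04). All 3 genes separated the groups. Pigr, which carries immunoglobulin A across the epithelium, was lower by less (-1.16 ± 0.28). Noxo1, a subunit of the epithelial NADPH oxidase, fell (-2.13 ± 0.13), and Sprr1a, a cornified envelope protein, rose (2.19 ± 0.27).

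Most genes of antigen presentation by MHC class II were near 0 in organoids. Of 14 genes, 10 fell and 3 rose (median -4.59, or -4.04 with genes at 0 in organoids set at the bound that 3 counts allow). H2-Aa, the alpha chain of the class II molecule (chr17:34282744-34287823), was at 0.0969, 0.0782 and 0.0488 CPM in organoids and 719, 679, 633 and 545 CPM in crypts. The organoid libraries held 5 counts of it in all (log2 fold change -12.96 ± 0.23, adjusted p = 6.7e-11). Cd74, the invariant chain, was at 0.291, 0.626 and 0.439 CPM in organoids and 1594, 1357, 1377 and 1075 CPM in crypts (log2 fold change -11.50 ± 0.28, adjusted p = 3.3e-10). H2-Ab1, the beta chain, was at 11, 14.8 and 12.1 CPM in organoids and 871, 735, 704 and 577 CPM in crypts (log2 fold change -5.84 ± 0.19, adjusted p = 2.3e-09). H2-Eb1 (-9.95 ± 0.23) and H2-DMb1 (-7.78 ± 0.19) fell too. Those that rose were Ifi30 (1.55 ± 0.09) and Lgmn (1.19 ± 0.10), lysosomal enzymes, and Rfxap (0.80 ± 0.10), a subunit of the promoter complex of class II genes. Class II is made by both epithelium and leukocytes, and leukocyte markers also fell, with values given below.

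MHC class I genes, expressed by nearly all cells, fell by less. Of 26 genes, 22 fell, 13 by at least 4-fold, and 1 rose (median -2.05). B2m, the shared light chain, was at 231, 314 and 309.8 CPM in organoids and 1053, 1189.8, 981 and 1039 CPM in crypts (log2 fold change -1.9 ± 0.14, adjusted p = 6.2e-07). H2-K1, a classical heavy chain, fell (-1.21 ± 0.15), as did H2-D1 (-2.21 ± 0.16), H2-Q2 (-3.51 ± 0.25) and H2-T23 (-3.45 ± 0.11). Psme2, an activator of the immunoproteasome, was at 6.54, 7.51 and 6.74 CPM in organoids and 227, 242, 200.1 and 227 CPM in crypts (log2 fold change -5.01 ± 0.11, adjusted p = 2.1e-10). H2-Q10, a secreted class I molecule, rose and was at 192, 216 and 220.2 CPM in organoids and 9.89, 6.67, 7.68 and 4.6 CPM in crypts (log2 fold change 4.85 ± 0.21, adjusted p = 5.3e-08). Class I genes are close relatives, and reads shared between them make single members less certain.

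Of 53 interferon-stimulated genes, 46 fell, 36 by at least 4-fold, and 2 rose (median -2.68). Irf1, a transcription factor induced by interferon gamma, was at 9.25, 10.047 and 8.59 CPM in organoids and 289, 202, 199.7 and 206 CPM in crypts. Crypt 1 was highest, and all organoids lay far below all crypts (log2 fold change -4.59 ± 0.17, adjusted p = 4.7e-09). Cmpk2, a nucleotide kinase, was at 1.60, 2.31 and 1.9 CPM in organoids and 53.1, 47.5, 41.8 and 41.0 CPM in crypts (log2 fold change -4.55 ± 0.16, adjusted p = 3.6e-09), and Parp14, an ADP-ribosyltransferase, was at 10.03, 13.4 and 12.0 CPM in organoids and 325, 273, 195 and 184 CPM in crypts (log2 fold change -4.37 ± 0.24, adjusted p = 2.9e-07). Both separated the groups. Ifi27l2b and Irf8 fell by less (-1.15 ± 0.18 and -0.57 ± 0.15). Bst2 (tetherin) and Lgals3bp rose (2.14 ± 0.21 and 0.74 ± 0.14).

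Many interferon-stimulated genes hold the same short element in their promoters, and a few of these are shown because most of the list moved in 1 direction. The interferon-stimulated response element was searched as GAAA, any 2 bases and GAAA again, on both strands of RefSeq promoter windows of GRCm38.p6, running from 250 bases before to 50 bases after the gene start. It occurred in 25 of the 39 listed genes with a window (64.1%), against 3.73% of 10771 tested genes with a window and 3.44% of 32851 windows. The stretches below are 40 bases each on the strand of the gene, with the match in capitals. A match on the opposite strand shows as its reverse complement, which begins with TTTC. Neighbouring matches can overlap, as in Gbp3 and Isg15. Of the 25 listed genes with a match, 21 fell, Bst2 rose and 3 did not pass. The genes shown were picked after their values were seen, and all of them fell.
Gbp3, chr3:142559984-142560023, plus strand: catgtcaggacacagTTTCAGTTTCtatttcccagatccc
Igtp, chr11:58199507-58199546, plus strand: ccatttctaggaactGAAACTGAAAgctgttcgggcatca
Oas3, chr5:120777710-120777749, minus strand: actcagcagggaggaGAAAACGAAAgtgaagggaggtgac
Isg15, chr4:156200866-156200905, minus strand: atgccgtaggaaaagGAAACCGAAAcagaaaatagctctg
Rsad2, chr12:26456548-26456587, minus strand: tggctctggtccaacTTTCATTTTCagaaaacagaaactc
Among the genes with these promoters, Igtp, an immunity-related GTPase, was at 2.47, 2.74 and 2.34 CPM in organoids and 92.5, 38.1, 34.7 and 17.6 CPM in crypts. Oas3, a sensor of double-stranded RNA, was at 0.533, 0.899 and 1.03 CPM in organoids and 52.2, 57.4, 35.7 and 36.1 CPM in crypts. Rsad2 (viperin) was at 0.872, 1.09 and 1.12 CPM in organoids and 9.22, 12.1, 5.83 and 4.76 CPM in crypts. All organoids lay below all crypts in each. Gbp3, a guanylate-binding protein, had 3 counts in organoids, and the ratio of crypts to organoids was 57.1, with a counting interval of 19.5 to 277. The log2 fold changes were -4.18 ± 0.68 for Igtp, -5.77 ± 0.28 for Oas3, -2.21 ± 0.33 for Isg15, a ubiquitin-like modifier, and -2.95 ± 0.36 for Rsad2.

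Most of the tested leukocyte and fibroblast genes were lower in organoids than in crypts. All 35 tested genes of T cells and intraepithelial lymphocytes fell, 34 by at least 4-fold, and 25 of them had 0 counts in every organoid library (median -9.56, or -6.81 with those genes at the bound). Gzma, a granzyme of cytotoxic lymphocytes, had 0 counts in all 3 organoid libraries and 170.4, 115, 151 and 35.2 CPM in crypts. It was at least 2684-fold lower in organoids, with crypt 4 the lowest crypt (adjusted p = 0.0028). Cd8a, the alpha chain of the CD8 coreceptor, had 0 counts in all 3 organoid libraries and 33.3, 29.4, 32.3 and 10.3 CPM in crypts. It was at least 597-fold lower (adjusted p = 3.9e-04). Ptprc, the pan-leukocyte phosphatase CD45, was at 0, 0.0391 and 0.0488 CPM in organoids and 73.0, 49.7, 48.6 and 38.7 CPM in crypts. With 2 counts in the organoid libraries, crypts exceeded them by a ratio of 1772 with a counting interval of 491 to 14636. Klrd1, a natural killer cell receptor, had 0 counts in all 3 organoid libraries and 5.16, 5.03, 5.12 and 1.99 CPM in crypts, and was at least 97.9-fold lower. Summed over 36 listed genes, the level was 7.78 to 8.55 CPM in organoids, 228 to 803 CPM in crypts and 119 to 751 CPM in the 4 control tissue libraries.

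Plasma cell genes fell in 6 of 9 cases. Igha, the constant region of immunoglobulin A, had 0 counts in all 3 organoid libraries and 78.1, 109.9, 20.7 and 22.5 CPM in crypts, at least 1324-fold lower (adjusted p = 0.011), and Jchain, which joins its monomers, was at 0, 0.195 and 0.0488 CPM in organoids and 18.3, 18.4, 6.30 and 5.28 CPM in crypts (log2 fold change -6.99 ± 0.91, adjusted p = 1.7e-04). Xbp1, which secretory cells of every kind use, did not pass (0.14 ± 0.10). Myeloid genes fell in 17 of 18 cases. Itgam, an integrin of myeloid cells, was at 1.26, 1.37 and 0.732 CPM in organoids and 8.87, 7.48, 6.87 and 6.90 CPM in crypts (log2 fold change -2.73 ± 0.24, adjusted p = 2.1e-06). Siglecf, expressed by eosinophils and tuft cells, fell (-5.95 ± 0.86), and Kit (-1.19 ± 0.24) and Cd14 (-0.89 ± 0.26) fell by less. Summed levels were 29.9 to 38.9 CPM in organoids and 113 to 148 CPM in crypts over 35 myeloid genes, and 291 to 297 CPM in organoids and 312 to 514 CPM in crypts over 25 B and plasma cell genes. Of 6 globin and erythroid genes, all 6 fell. Hbb-bs, an adult beta globin, had 0 counts in all 3 organoid libraries and 18.1, 12.0, 17.3 and 4.97 CPM in crypts. It was at least 297-fold lower (adjusted p = 2.8e-04).

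Fibroblast and matrix genes fell in 19 of 21 cases and rose in 0, 17 of the falls being at least 4-fold (median -5.45, bounded -4.52). Col3a1, a fibrillar collagen, was at 0.0485, 0.0782 and 0 CPM in organoids and 13.2, 5.90, 8.25 and 1.20 CPM in crypts. The 3 organoid counts put crypts above organoids by a ratio of 164, with a counting interval of 56.2 to 796. Col15a1, a basement membrane collagen, was at 0.145, 0.156 and 0.146 CPM in organoids and 1.5, 1.45, 1.66 and 2.20 CPM in crypts (log2 fold change -3.45 ± 0.34, adjusted p = 5.9e-06). Vim, vimentin, did not pass (-0.71 ± 0.30). Gsn and Fbln1 fell (-1.53 ± 0.34 and -1.11 ± 0.16). The summed level over 34 genes was 139 to 168 CPM in organoids, 383 to 478 CPM in crypts and 2254 to 3022 CPM in tissue. Smooth muscle genes were mixed, with 3 of 11 higher and 6 lower. Tpm2 fell (-3.22 ± 0.33), and Myl9, a myosin light chain also used by other contractile cells, was at 47.0, 81.3 and 52.0 CPM in organoids and 1.99, 0.635, 0.758 and 0.262 CPM in crypts (log2 fold change 6.00 ± 0.46, adjusted p = 1.0e-05). Their sum was 979.9 to 1154 CPM in organoids, 843 to 1179 CPM in crypts and 10533 to 15803 CPM in tissue. Endothelial genes summed higher in organoids, at 39.0 to 47.3 CPM against 22.9 to 29.2 CPM in crypts and 178 to 331 CPM in tissue. Most of them went the other way: of 8 tested, 5 fell, 3 by at least 4-fold, and 3 rose (median -0.89). Enteric neuron and glia genes also summed higher in organoids, at 16.0 to 16.7 CPM against 12.2 to 13.1 CPM in crypts and 175 to 248 CPM in tissue. Of 7 tested, 5 rose and 1 fell.

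**Figure D4:**
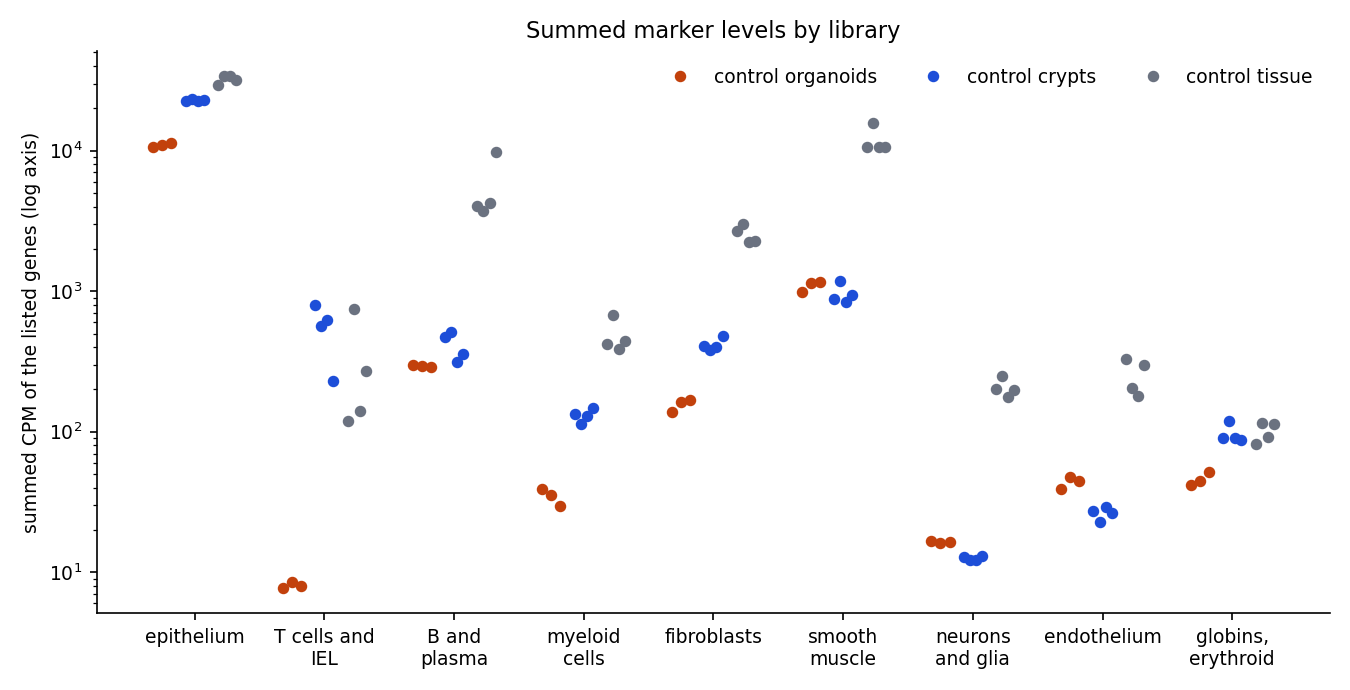
Summed CPM of the listed marker genes, on a log axis, with 1 point per library, for control organoids, control crypts and control tissue. T cell and intraepithelial lymphocyte genes sum to 7.78 to 8.55 CPM in organoids and 228 to 803 CPM in crypts, and smooth muscle genes overlap between organoids and crypts. Endothelial sums and neuron and glia sums are higher in organoids than in crypts.

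Genes of amino acid stress, glycolysis and lipid synthesis were higher in organoids. Genes of the ATF4 pathway, which cells use when amino acids run short or protein folding is strained, rose in 28 of 29 cases, 21 by at least 4-fold (median 2.97). Atf4 itself was at 363, 324 and 372 CPM in organoids and 151, 153, 157 and 196 CPM in crypts (log2 fold change 1.10 ± 0.11, adjusted p = 6.3e-06). Shmt2, a mitochondrial enzyme of serine and one-carbon metabolism, was at 277, 253 and 314 CPM in organoids and 33.7, 31.8, 31.2 and 30.4 CPM in crypts. The groups lay far apart (log2 fold change 3.14 ± 0.09, adjusted p = 1.2e-09). Gdf15, a secreted stress signal, was at 31.6, 36.0 and 35.0 CPM in organoids and 1.15, 1.45, 1.14 and 1.31 CPM in crypts (log2 fold change 4.76 ± 0.13, adjusted p = 5.8e-10), and Ddit4, an inhibitor of the growth kinase mTORC1, was at 440.0, 416 and 462 CPM in organoids and 32.0, 34.3, 41.9 and 22.4 CPM in crypts (log2 fold change 3.75 ± 0.18, adjusted p = 6.0e-08). Neither overlapped. Aldh18a1, of proline synthesis, rose by less (0.67 ± 0.10). Slc3a2, the heavy chain of amino acid exchangers, was the member that fell (-0.69 ± 0.12). Stc2, a secreted glycoprotein of the same list, was at 127, 95.5 and 119 CPM in organoids and 0.0441, 0, 0.237 and 0.105 CPM in crypts (log2 fold change 10.15 ± 0.30, adjusted p = 2.5e-09). It had the largest rise among the uniquely countable genes ranked below.

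The C/EBP-ATF response element was searched as TGATGNAA on both strands in the same windows, a motif chosen after seeing the data. It occurred in 7 of 25 listed genes with a window (28%), against 2.68% of tested genes and 3.97% of windows. Slc7a11 held matches on both strands. The stretches below, shown because these members rose by similar amounts, give matches in capitals, and a match on the opposite strand shows as its reverse complement.
Asns, chr6:7693210-7693249, minus strand: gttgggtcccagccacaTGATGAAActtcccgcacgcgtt
Chac1, chr2:119351033-119351072, plus strand: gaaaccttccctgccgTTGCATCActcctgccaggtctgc
Nupr1, chr7:126625557-126625596, minus strand: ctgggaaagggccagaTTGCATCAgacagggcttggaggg
Pycr1, chr11:120643828-120643867, minus strand: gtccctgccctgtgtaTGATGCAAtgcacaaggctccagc
Slc7a11, chr3:50443656-50443695, minus strand: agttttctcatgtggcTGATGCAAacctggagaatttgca
Among these genes Asns, asparagine synthetase, was at 335, 329 and 376 CPM in organoids and 32.8, 30.4, 28.0 and 40.9 CPM in crypts (log2 fold change 3.39 ± 0.13, adjusted p = 6.8e-09). Slc7a11, the cystine importer, was at 32.9, 25.4 and 36.7 CPM in organoids and 2.47, 1.32, 2.61 and 5.54 CPM in crypts (log2 fold change 3.42 ± 0.39, adjusted p = 6.1e-05). The organoids lay above the crypts in both. Chac1, which degrades glutathione, Nupr1 and Pycr1, the last enzyme of proline synthesis, had log2 fold changes of 3.48 ± 0.29, 3.25 ± 0.31 and 2.97 ± 0.24.

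Glycolytic and hypoxia-induced genes rose in 27 of 33 cases, 17 by at least 4-fold, and fell in 4 (median 2.31). P4ha2, a collagen prolyl hydroxylase induced by hypoxia, was at 44.1, 44.6 and 42.3 CPM in organoids and 0.353, 0.635, 0.521 and 0.523 CPM in crypts. The organoids were tight and far above the crypts (log2 fold change 6.41 ± 0.15, adjusted p = 2.3e-10). Aldoa, the glycolytic aldolase, was at 2319, 2699.8 and 2715 CPM in organoids and 324, 334, 355 and 489 CPM in crypts (log2 fold change 2.78 ± 0.16, adjusted p = 1.2e-07). Gpi1 (1.48 ± 0.12) and Ldha (0.68 ± 0.15), enzymes at the start and end of glycolysis, rose by less, as did Pkm (0.88 ± 0.13). Ankrd37, a hypoxia-induced gene, rose (3.84 ± 0.10). Gapdh, Pgam1 and Pgk1 were listed as lower (-4.73 ± 0.27, -2.98 ± 0.15 and -1.01 ± 0.13). They lie outside the uniquely countable set, as do Ankrd37 and Pkm, which rose, so the counts of all of these are uncertain. Of the words of Gapdh, 24.5% occur elsewhere. The part of pseudogene reads in these values was not tested. Over the 25 uniquely countable members, 23 rose and 1 fell (median 2.77). Pfkfb4, which sets the level of a glycolytic activator, fell as well (-1.73 ± 0.13).

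Genes of lipid synthesis followed. In the cholesterol list 23 of 25 genes rose, 10 by at least 4-fold (median 1.35). In the fatty acid list 14 of 19 rose, 3 by at least 4-fold, and 2 fell (median 1.09). The share that rose by at least 4-fold was 40% for cholesterol and 15.8% for fatty acids, against 15.9% of all tested genes. Lss, lanosterol synthase, was at 254, 233 and 250.01 CPM in organoids and 47.7, 41.0, 44.7 and 40.1 CPM in crypts. Both groups were tight and separate (log2 fold change 2.50 ± 0.09, adjusted p = 3.4e-09). Hmgcs1, the synthase at the start of the pathway, was at 583, 564 and 575 CPM in organoids and 290.1, 219, 247 and 227 CPM in crypts (log2 fold change 1.22 ± 0.11, adjusted p = 2.8e-06). Stard4, a sterol carrier, rose by less (0.85 ± 0.10). Idi1 was listed as lower (-2.87 ± 0.08), with 28.0% of its words shared with other genes. The sterol response element, searched as TCACNCCAC on both strands, occurred in 1 of 17 cholesterol genes with a window (5.88%), against 1.44% of tested genes and 1.24% of windows. Its match in capitals lies in Hmgcs1.
Hmgcs1, chr13:119690199-119690238, plus strand: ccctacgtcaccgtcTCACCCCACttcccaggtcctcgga
Scd1, the desaturase that makes monounsaturated fatty acids, was at 1099, 1131 and 1259 CPM in organoids and 13.9, 3.08, 13.2 and 1.83 CPM in crypts. Crypts 2 and 4 were lowest and every organoid lay far above every crypt (log2 fold change 7.17 ± 0.81, adjusted p = 2.2e-04). Scd2, its relative, was at 4318, 4001 and 4214 CPM in organoids and 157, 39.0, 103 and 54.6 CPM in crypts (log2 fold change 5.56 ± 0.50, adjusted p = 2.1e-05). Fads1 (3.21 ± 0.14), a desaturase of polyunsaturated fatty acids, Gpam (1.85 ± 0.09), Acly (1.77 ± 0.13) and Fasn (1.09 ± 0.12) rose. Acaca and Acacb, the acetyl-CoA carboxylases, fell (-1.30 ± 0.16 and -1.62 ± 0.33).

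Metal and oxidative stress genes were mixed. Of 15 metallothionein and zinc genes, 7 rose and 7 fell (median 0.32). Mt1, a metal-binding metallothionein, was at 1806, 1606 and 1726 CPM in organoids and 59.8, 34.7, 68.4 and 62.6 CPM in crypts. All organoids lay far above all crypts (log2 fold change 4.92 ± 0.22, adjusted p = 3.2e-08), as they did for Mt2, at 1692, 1484 and 1480.3 CPM in organoids and 12.5, 4.85, 14.9 and 6.64 CPM in crypts (log2 fold change 7.32 ± 0.42, adjusted p = 1.0e-06). Slc39a8 and Slc39a14, zinc importers, rose (2.48 ± 0.12 and 1.02 ± 0.15), while Slc39a4, the main zinc importer of enterocytes, and Slc39a5 fell (-1.99 ± 0.19 and -1.06 ± 0.11). In the list of NRF2 targets and glutathione genes 18 of 32 rose and 8 fell (median 0.51). Hmox1, heme oxygenase, was at 18.6, 19.7 and 16.3 CPM in organoids and 0.353, 0.408, 0.474 and 0.837 CPM in crypts (log2 fold change 5.14 ± 0.23, adjusted p = 1.7e-08). Gstm3, a glutathione transferase, and Tkt rose (1.80 ± 0.24 and 0.46 ± 0.11), Mgst2 and Taldo1 fell (-2.07 ± 0.09 and -0.32 ± 0.10), and Txnrd1, thioredoxin reductase, did not pass (0.19 ± 0.11).

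The gene deleted in the study, Rnaseh2b, was detected in both groups, at 14.8, 12.1 and 13.6 CPM in organoids and 17.3, 8.66, 9.24 and 18 CPM in crypts. The groups overlapped (log2 fold change 0.02 ± 0.27, adjusted p = 0.95). Trp53 was at 86.7, 80.1 and 94.5 CPM in organoids and 38.0, 34.8, 37.2 and 35.6 CPM in crypts, with every organoid above every crypt (log2 fold change 1.26 ± 0.08, adjusted p = 2.3e-07). Of 40 p53 target genes, 25 rose, 7 by at least 4-fold, and 6 fell (median 0.80). The share that rose by at least 4-fold, 17.5%, was near the 15.9% of all tested genes. Cdkn1a, the cell cycle inhibitor p21, was at 200.3, 268 and 248 CPM in organoids and 73.4, 85.9, 77.9 and 70.5 CPM in crypts (log2 fold change 1.64 ± 0.11, adjusted p = 4.3e-07). Zmat3, an RNA-binding target, was at 77.7, 94.3 and 83.3 CPM in organoids and 18.1, 18.1, 19.4 and 18 CPM in crypts (log2 fold change 2.21 ± 0.09, adjusted p = 7.5e-09). Both separated the groups. Ccng1 and Ccnd2 rose (1.30 ± 0.14 and 0.78 ± 0.12), and Perp, an adhesion protein, fell (-0.58 ± 0.10). Among ribosomal protein genes, most of which fall outside the uniquely countable set, 46 of 59 were listed as lower (median -2.12), and over the 22 uniquely countable members the median was -0.66. Rpl4, Rps3 and Rpl8 rose (1.25 ± 0.11, 1.22 ± 0.16 and 1.03 ± 0.12), while Rps16 was at 1.21, 1.33 and 1.32 CPM in organoids and 271, 250.35, 289 and 332 CPM in crypts. The part of pseudogene reads in these values was not tested.

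Ranking covered protein-coding genes with a standard symbol that passed, reached 20 CPM in the higher group and did not overlap between groups. It thus left out processed pseudogenes, and the largest rises held several intronless copies. Prdx6b, a single-exon relative of the peroxiredoxin gene Prdx6, was at 46.4, 56.8 and 57.9 CPM in organoids and 0, 0, 0 and 0 CPM in crypts. It was at least 1525-fold higher. Aldoart1, Aldoart2, Rbm8a2 and Csl were of the same single-exon kind. Among multi-exon genes, Ndufa4l2, a hypoxia-induced mitochondrial protein, was at 25.8, 33.5 and 33.4 CPM in organoids and 0, 0, 0.0474 and 0.0523 CPM in crypts. Ak4, a mitochondrial adenylate kinase, was at 170.2, 179 and 161 CPM in organoids and 0.485, 0.363, 0.711 and 0.523 CPM in crypts (log2 fold change 8.34 ± 0.14, adjusted p = 6.3e-11). Grin1, an NMDA receptor subunit, was at 33.7, 36.1 and 33.2 CPM in organoids and 0.0441, 0.0454, 0.0948 and 0.0523 CPM in crypts (log2 fold change 9.05 ± 0.18, adjusted p = 1.2e-10), and Atg9b, of autophagy, rose too (8.61 ± 0.31). Over uniquely countable genes the next were Adm2 (7.99 ± 0.23), Cbr3 (7.42 ± 0.48), Cybrd1, Mab21l3 (7.31 ± 0.20) and Scd1.

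The largest falls held defensin copies (Defa20, Defa23, Defa37, Defa33 and Defa32), Gsdmc2, a gasdermin with close copies, the histone gene Hist1h3f and Tmem72. Enpp7, the sphingomyelinase of the brush border, had 0 counts in all 3 organoid libraries and 412, 514, 450.1 and 441 CPM in crypts. It was at least 10105-fold lower (adjusted p = 8.4e-10). Pmp22, a membrane protein best known from myelin, had 0 counts in all 3 organoid libraries and 298, 217, 395 and 368 CPM in crypts, at least 7044-fold lower. Isx, an intestinal homeobox factor, had 0 counts in all 3 organoid libraries and 98.6, 87.8, 102 and 84.1 CPM in crypts, at least 2076-fold lower. Car4, a carbonic anhydrase of the brush border, was at 0, 0.0782 and 0 CPM in organoids and 106, 117, 125 and 304 CPM in crypts, with crypt 4 the highest. The other uniquely countable genes among the 10 largest falls were Gzma, H2-Aa, Gzmb, Cd8a, Fabp6 and Cd7. The organoid and crypt files list 52550 and 47729 genes, and whether that difference bears on a gene at 0 in 1 set was not tested.

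The same contrast in H2BdIEC mice gave a second view from libraries that the control comparison did not use, although of the same 2 library series. There 40.7% of 15861 tested genes were called higher and 37.5% lower, 15.3% by at least 4-fold higher and 16.8% by at least 4-fold lower. Of the 5557 large control differences, 4784 were tested in H2BdIEC, and 4432 were large in the same direction, which is 79.8% of the control list and 87.1% of the 5090 large differences in H2BdIEC. List medians in H2BdIEC were 1.08 for stem cells, -1.08 for goblet cells, -2.41 for Paneth cells, -2.80 for tuft cells and -3.89 for the brush border. They were -4.97 for MHC class II, -3.82 for interferon-stimulated genes, 2.76 for ATF4, 1.48 for cholesterol synthesis and 1.68 for glycolysis and hypoxia. Each has the sign of its control median. Among the 36 lists described, the proximal, NRF2 and metallothionein medians changed sign, to -0.27, -0.05 and -0.39. A total of 8 genes with a large control difference passed in the opposite direction, among them Akp3, with a log2 fold change of -3.99 in H2BdIEC, and Fgf15, an ileal hormone chosen after its value was seen, with 3.92 in H2BdIEC and -3.05 in controls. Of 243 genes named here that were called in controls and tested in H2BdIEC, 220 passed in the same direction, 3 passed in the opposite direction (Akp3, Fgf15 and Tyms) and 20 did not pass. Those of the 20 with a large control difference were Pdx1, at 0.50 in H2BdIEC (adjusted p = 0.22, groups overlapping), Nr0b2, at -0.22 (adjusted p = 0.58), and Fabp6, at -12.51 (adjusted p = 0.092).

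**Figure D5:**
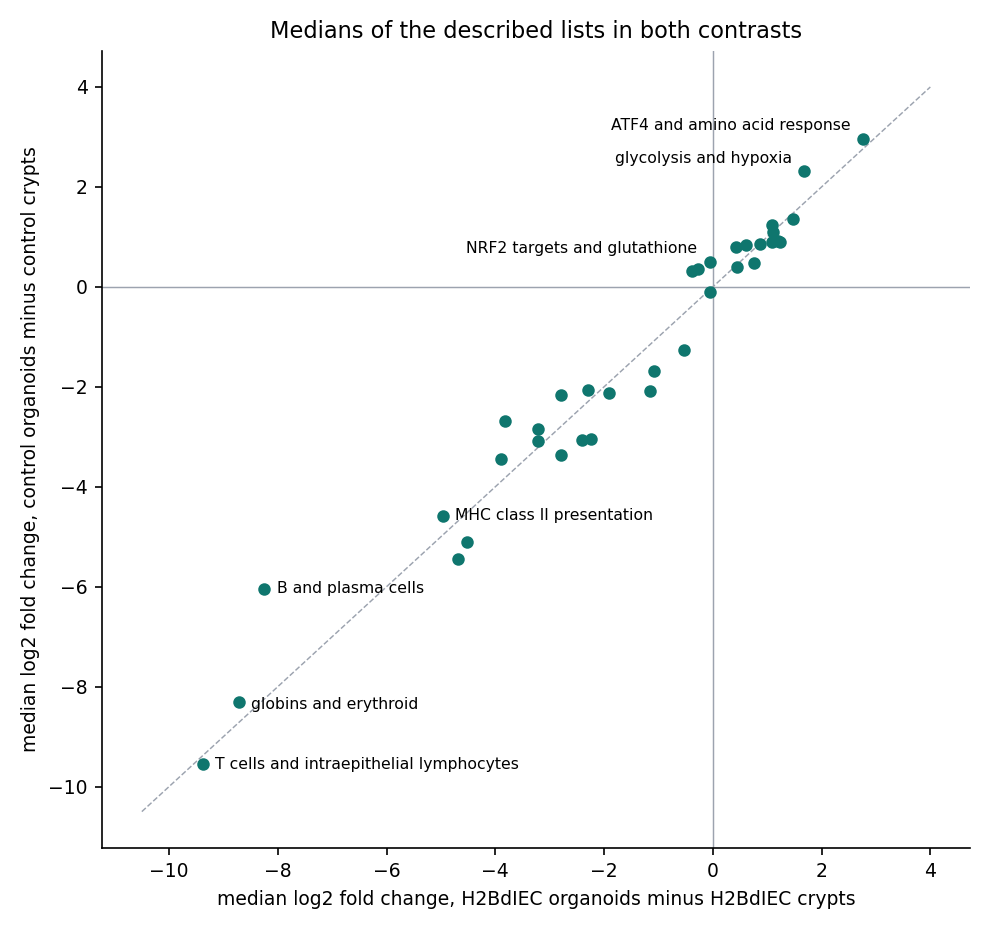
Median log2 fold change of the 36 lists described, in controls (vertical axis) against H2BdIEC (horizontal axis), both organoids minus crypts; the dashed line marks equal values. Points near the line have similar medians in both, and 3 lists lie above 0 on the vertical axis and below 0 on the horizontal axis.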

How the data were processed

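RNA-seq gene counts of 7 libraries were compared: 3 of control organoids and 4 of control crypts. The values are raw counts per Ensembl gene as deposited, with no normalization. The submitters' processing notes name cutadapt 1.5 and 1.9, Trimmomatic 0.36, TopHat2 2.0.14, HTSeq with no version and GRCm38, without saying which step or library each served. Library preparation was stranded, per the labels; the strand setting of the counting is not given in the sources used here. Rows that name no gene (reads with no feature, ambiguous or not unique) were left out of library sizes and tests. Such counts were found for the crypt libraries and not for the organoid libraries. Whether reads were counted in the same way in both was not tested. Genes counted in both sets were tested with edgeR 4.0.16 (R 4.3.3): filterByExpr, TMM scaling, a robust quasi-likelihood fit of the 7 libraries and Benjamini-Hochberg adjustment over all tested genes. Every adjusted p is from that test, and a gene passed at an adjusted p under 0.05. Genes were annotated from GENCODE M21 (GRCm38), which matched 47224 of 47357. The procedure was run on simulated counts in which few genes changed and every gene had the same level of variation. These data differ in both respects, so that run does not measure the error of the calls given here. Alternatives used DESeq2 1.42.0, other scalings, filters and gene sets, and left out each library in turn. All members and gene lists were chosen with earlier results of these data known.

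Named genes were taken by rule. Over all genes, the rule took the 10 protein-coding genes with the largest rise and the 10 with the largest fall among those that passed, had at least 20 CPM in the higher group and did not overlap between groups. Left out of this part were gene models without a standard symbol, mitochondrial and Y-linked genes, Xist, and immunoglobulin and T cell receptor segments. For each of the 36 lists described it took the 4 tested members with the highest level, the 2 further members with the smallest p, and members that passed against the direction of most of their list. Rnaseh2b and Trp53 were added. A few genes taken by the rule are not reported here. Promoter genes and those so marked were chosen after their values were seen. Folds against a group at 0 use a floor of 3 counts over the group and are lower bounds. Counting intervals come from the exact 95% Poisson interval of the organoid count alone and cover counting error only. Levels in tissue were described without a test.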

Additional observations from a re-analysis of the deposited data

Results flagged for a closer look

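Crypt levels of the 256 named genes were examined for a single library far from the other 3. A gap to the nearest library past the 95% critical value of Dixon's test, which chance gives in about 1 of 20 groups, was found for 24 genes, with crypt 2 the distant library in 12 and crypt 4 in 7. Crypt 2 was the highest for Anpep (5556 CPM), Dmbt1 (5367 CPM), Krt20 (1866 CPM), Lct (3672 CPM), Pfkfb4 (155 CPM) and Reg3b (4421 CPM). It was the lowest for Dkk3 (0.272 CPM), Kit (27.4 CPM), Krt19 (1058 CPM), Prox1 (2.90 CPM), Rfxap (11.7 CPM) and Tas1r3 (2.86 CPM). Crypt 4 was the highest for Atf4 (196 CPM), Car4 (304 CPM) and Reg4 (349.5 CPM). It was the lowest for Cd8a (10.3 CPM), Erbb3 (734 CPM), Klrd1 (1.99 CPM) and Mab21l3 (0.105 CPM). Crypt 1 was the highest for Irf1 (289 CPM), Muc2 (5576 CPM) and, with a single count, Aldoart1 (0.0441 CPM). Crypt 3 was the highest for Grin1 (0.0948 CPM) and Zmat3 (19.4 CPM).

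Akp3 and Tyms passed in opposite directions in the control and H2BdIEC contrasts, with every library of each contrast on its own side. For Akp3 the log2 fold change was -3.99 in H2BdIEC and 3.23 in controls. For Tyms it was 0.41 in H2BdIEC and -0.23 in controls. The difference between the contrasts was not tested.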

How the results depend on the processing

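Counts of genes depended on the threshold and on which genes were counted. A test against a 2-fold change called 3582 genes higher and 3708 lower. Protein-coding genes that overlap no other gene gave 2282 higher and 2306 lower, 402 and 836 of them by at least 4-fold. Fitting uniquely countable genes alone gave 4374 higher, with 655 higher and 1335 lower by at least 4-fold. With no filter on low counts, 4488 genes were at least 4-fold lower. Leaving out a library gave 2643 to 2791 large rises and 2534 to 3154 large falls. Upper-quartile scaling moved the median of all genes to 0.13 and no filter moved it to -0.15.

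Against a 2-fold change, 21.2% of all tested genes were called higher. The share of tested members was 30.0% for stem cells, 21.1% for Wnt targets, 23.1% for G2/M, 7.69% for DNA replication, 40% for enteroendocrine cells and 33.3% for EGF. It was 56.0% for cholesterol, 42.1% for fatty acids, 31.2% for NRF2, 26.7% for metallothioneins, 32.5% for p53 and 42.9% for keratins. Smooth muscle genes were called lower in 33.3% of members that overlap no other gene, against 38.7% of all such genes. List medians changed sign in 7 of the alternatives: for smooth muscle among genes that overlap no other (0.33) and without crypt 1, 2 or 3 (0.05, 0.02 and 0.14), for the proximal list among genes that overlap no other (-0.64), and for metallothioneins at a minimum of 1 CPM in 3 libraries (-0.40) and over uniquely countable genes (-0.04).

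Among 256 named genes, Reg4 changed direction without crypt 4, to 0.58, and passed, and ranged down to -0.66 without another library. Leaving out 1 library ended the call of 11 genes. Cd24a (0.53 to 0.73 where lost), Msx1 (0.74 to 1.05), Cps1 (0.22 to 0.25), Slc43a1 (0.56 to 0.76) and Tyms (-0.24 to -0.20) lost it most often, to any of several libraries. Krt19 lost it without organoid A (-0.35) or B (-0.38), Sp5 (-0.73) and Taldo1 (-0.23) without organoid A, and Fabp6 (-12.35) without organoid B. Defa32 lost it without crypt 4 and Gsdmc2 without crypt 1, crypt 3 or organoid B. Axin2 (-0.29) and Ccnd1 (-0.40) passed without crypt 2, Tff3 without crypt 2 (-0.61) or 3 (-0.64), and Vim without crypt 4 (-0.93). The cause of these changes was not tested. Of 2681 values of named genes under the other alternatives, 2593 kept their direction and their side of the threshold. A further 79 values, from 59 genes, no longer passed, and 9 came to pass. No paired analysis was possible because organoids carry letters and crypts carry numbers that they do not share.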
